A study of Bubalus bubalis with 36 samples.

Results

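ASTN1 and PAPPA2 are neighbouring genes on chromosome 5 of the river buffalo, and their transcripts were measured in 6 adipose tissue (AT) depots. These 2 of the 23032 gene models in the expression table were chosen by their symbols, as adjacent models, numbers 1276 for ASTN1 and 1275 for PAPPA2, whose levels were already known to be high in subcutaneous adipose tissues (SATs). The values that chose them are therefore the SAT against visceral adipose tissue (VAT) levels, which are given here as a description with no test. The comparisons tested below are those between depots of 1 fat class, between the sexes, between both genes within a depot, and the SAT against VAT difference of other genes.

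RNA sequencing was performed on 36 libraries, 1 for each of 6 depots in each of 6 buffaloes aged 19 to 21 months. The 3 SAT depots were the back (BSAT), the sternum (SSAT) and the inguinal region (IAT), and the 3 VAT depots were the fat of the omentum (OAT), around the heart (PCAT) and around the kidney (PRAT), so each fat class had 18 libraries. These 18 are 3 depots of the same 6 animals. The main tests between SATs and VATs treated them as separate and held no term for the animal. Animals 1 to 3 were males labelled Murrah and animals 4 to 6 were females labelled Nili-Ravi, so sex and breed label cannot be told apart, and the sexes were also reared apart. The animal table of the study gives Murrah for every animal, so whether breed differed with sex is not settled. By the labels, all animals went through the same fattening before slaughter and none carried a treatment, so the fat class is the contrast within each animal. Whole pieces of tissue were sequenced, and fewer cells of a type and less RNA per cell cannot be told apart in such values. Levels are in FPKM, sequenced fragments scaled to transcript length and to the mapped total of the library, and log2 values are log2(FPKM + 0.1), which understates differences of low genes.

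PAPPA2 encodes pappalysin 2, a secreted metalloprotease that cuts the insulin-like growth factor (IGF) binding proteins IGFBP3 and IGFBP5 and so frees IGF from its carriers. Stanniocalcins inhibit the pappalysins, and the related protease PAPPA cuts mainly IGFBP4. ASTN1 encodes astrotactin 1, a membrane protein known in mice for the adhesion between migrating young neurons and glial fibres, and its relative ASTN2 controls the amount of ASTN1 at the cell surface. A role of ASTN1 in fat is not part of this textbook knowledge.

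All libraries held adipocyte transcripts. Of 12 listed adipocyte genes 11 were in the table, and ADIPOQ, encoding the adipokine adiponectin, lay between 156 and 1618 FPKM in SATs and between 32.6 and 3294 FPKM in VATs. A gene is called below where its adjusted p was under 0.05, and no adipocyte gene was called between SATs and VATs. The lack of calls does not mean equal levels. The summed level of the adipocyte genes had a median of 3965 FPKM in SATs and 8320 FPKM in VATs, with ranges of 2029 to 9321 and 365 to 16504 FPKM. A total of 6 libraries (IAT 4, OAT 1, OAT 4, PCAT 2, PRAT 2 and PRAT 4) stood apart by lymphocyte genes, with a summed level of 535 to 2337 FPKM against 12.8 to 235 FPKM in the other 30. BSAT 1 stood apart by skeletal muscle genes, with 1977 FPKM against at most 91.2 FPKM in the other 35. Mesothelial genes stood apart in PCAT 4, PCAT 2 and OAT 1, with a summed level of 553 to 2453 FPKM against at most 77.7 FPKM in the other 33. Adipocyte genes were low in PRAT 4, OAT 1, PCAT 4 and OAT 4, with 365 to 664 FPKM against 2029 FPKM or more in the other 32. An alternative chosen after seeing the data left out PCAT 4 together with the 6 lymphocyte-rich libraries, which removes all of these except BSAT 1.

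The highest median level of ASTN1 was detected in the BSAT depot. In animals 1 to 6, ASTN1 was 11.9, 7.70, 5.55, 7.43, 11.8 and 7.55 FPKM in BSAT, with an SD of 0.42 on the log2 scale, the smallest of the 6 depots for this gene. In SSAT it was 1.29, 2.30, 0.975, 1.15, 2.54 and 0.319 FPKM. All 6 SSAT libraries were below all 6 BSAT libraries. In IAT the values were 4.58, 0.298, 0, 0.217, 13.5 and 3.63 FPKM, so that animals 1, 5 and 6 were high and animals 2, 3 and 4 were low.

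In the VAT depots, ASTN1 was listed at 0 in 4 of 6 libraries of each depot. In OAT the 2 libraries above 0 had 5.92 FPKM in animal 1 and 0.447 FPKM in animal 2. In PCAT they had 1.37 FPKM in animal 1 and 0.614 FPKM in animal 4, and in PRAT 1.22 FPKM in animal 1 and 0.260 FPKM in animal 4. Animal 1 was thus the only animal with ASTN1 above 0 in all of its 6 depots, and its OAT library, the highest of the VAT libraries, was among those rich in lymphocyte genes. OAT 1, PCAT 4 and PRAT 4, all low in adipocyte genes, are 3 of the 6 VAT libraries with ASTN1 above 0, and their part in these values was not tested.

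PAPPA2 had another order of depots. In animals 1 to 6, it was 11.1, 5.42, 0, 2.75, 3.65 and 3.82 FPKM in BSAT. In SSAT it was 1.91, 1.51, 40.7, 9.87, 7.84 and 6.98 FPKM, and in IAT 27.6, 2.69, 2.58, 1.74, 61.3 and 32.2 FPKM. The high IAT libraries of PAPPA2 came from animals 1, 5 and 6, which were also the animals with high ASTN1 in IAT. Animal 3 joined the highest SSAT value to a BSAT value of 0.

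In OAT, PAPPA2 was 0.254, 3.30, 0.826, 0, 2.87 and 1.75 FPKM in animals 1 to 6. In PCAT it was 1.91, 0.420, 0.123, 0, 0.324 and 0.390 FPKM, and in PRAT it was above 0 in animal 3 alone, with 0.522 FPKM. PAPPA2 was therefore low but detected in most OAT and PCAT libraries, and listed at 0 in 5 of 6 PRAT libraries.

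**Figure D1:**
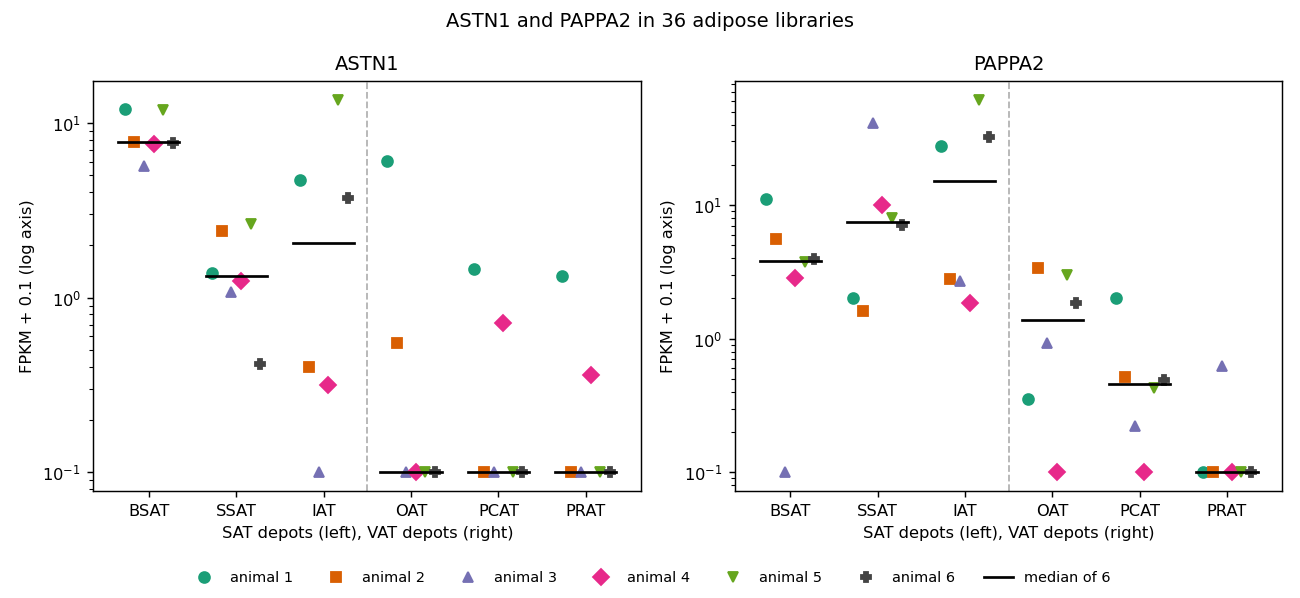
FPKM + 0.1 (log axis) of ASTN1 and PAPPA2 in each of 36 libraries, with the 3 SAT depots left of the dashed line and the 3 VAT depots right of it, 1 symbol per animal and a line for the median of 6. ASTN1 was highest in BSAT (median 7.62 FPKM) and at a median of 0 in the VAT depots, and PAPPA2 was highest in IAT (median 15.1 FPKM).

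By the median, the order of ASTN1 was BSAT (7.62 FPKM), IAT (1.97 FPKM), SSAT (1.22 FPKM) and then the VAT depots, each at 0. The order of PAPPA2 was IAT (15.1 FPKM), SSAT (7.41 FPKM), BSAT (3.73 FPKM), OAT (1.29 FPKM), PCAT (0.357 FPKM) and PRAT (0 FPKM). For both genes the ranges of any 2 depots next to each other in the order overlapped. FPKM is scaled by transcript length, but whether levels of different genes lie on 1 scale here was not tested. Among housekeeping genes, for example, the median was 7.51 FPKM for GAPDH and 521 FPKM for GUSB.

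Over the fat classes, ASTN1 averaged 4.59 ± 4.44 FPKM in SATs and 0.546 ± 1.41 FPKM in VATs (SD, n = 18 each). PAPPA2 averaged 12.4 ± 16.9 FPKM in SATs and 0.705 ± 1.04 FPKM in VATs (SD, n = 18 each). The medians were 3.09 FPKM in SATs and 0 FPKM in VATs for ASTN1, and 4.62 FPKM in SATs and 0.289 FPKM in VATs for PAPPA2.

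On the log2 scale the SAT minus VAT difference was 3.42 (SE 0.63) for ASTN1 and 3.86 (SE 0.65) for PAPPA2, which placed them at ranks 8 and 4 of the 17688 models kept by a filter (mean FPKM above 0.1). The SAT mean was above the VAT mean in 6 of 6 animals for both genes. Without the 6 lymphocyte-rich libraries the differences were 3.74 for ASTN1 and 3.54 for PAPPA2, and without PCAT 4 as well they were 3.90 and 3.35. Without BSAT 1 they were 3.28 for ASTN1 and 3.79 for PAPPA2. These values describe the contrast that chose the genes and add no evidence to it.

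An exact 0 is common in both genes. ASTN1 was listed at 0 in 13 of 36 libraries, of which IAT 3 was the only SAT library, and PAPPA2 in 8 of 36, of which BSAT 3 was the only SAT library. Among the 6157 gene models with a mean of 1 to 10 FPKM, as both genes have, 41 (0.666%) had at least 13 libraries at 0 and 76 (1.23%) had at least 8. However, 12 of the ASTN1 zeros and 7 of the PAPPA2 zeros were in VATs, and both genes reach this range of means through their SAT levels. These shares thus carry the SAT against VAT contrast that chose the genes, and they are a description. None of 20 housekeeping genes was at 0 in any library, and 23 of 8884 gene models (0.259%) with a median of at least 5 FPKM had an exact 0 somewhere. The SAT libraries at 0 were not poor in both genes at once: BSAT 3 had 5.55 FPKM of ASTN1 and IAT 3 had 2.58 FPKM of PAPPA2.

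To ask whether either gene differed between depots of the same fat class, which the choice of the genes did not use, the 6 depot pairs within classes were compared with limma, and p-values were adjusted by Benjamini and Hochberg over all 17688 gene models. None of the 12 comparisons passed an adjusted p of 0.05. The shares of all gene models called were 0.192% for BSAT against SSAT, 0.00565% for BSAT against IAT, 0.102% for SSAT against IAT, 1.12% for OAT against PCAT, 0.119% for OAT against PRAT and 3.08% for PCAT against PRAT. At an unadjusted p under 0.05, these pairs counted 1913, 851, 1206, 2616, 791 and 3071 gene models in the same order.

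The BSAT level of ASTN1 stood nearest to a call. The BSAT minus SSAT difference was 2.69 (SE 1.02, unadjusted p = 0.0126, limma adjusted p = 0.28), and the ranges of both depots did not overlap, which was so for 1.24% of all gene models. BSAT minus IAT was 2.81 (SE 1.02, unadjusted p = 0.0094, limma adjusted p = 0.82), where the IAT library of animal 5 (13.5 FPKM) lay above all BSAT libraries. SSAT minus IAT was 0.12 (SE 1.02). Among VAT depots, the ASTN1 differences were 0.28 for OAT minus PCAT, 0.47 for OAT minus PRAT and 0.19 for PCAT minus PRAT, each smaller than its SE of 1.02.

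For PAPPA2, BSAT minus SSAT was -1.36 (SE 1.03, limma adjusted p = 0.72), BSAT minus IAT was -1.92 (SE 1.03, limma adjusted p = 1) and SSAT minus IAT was -0.56 (SE 1.03). The first of these rested on BSAT 3 and SSAT 3, since without animal 3 it was 0.10. Among VAT depots, OAT minus PRAT was 2.77 (SE 1.03, unadjusted p = 0.0116, limma adjusted p = 0.85), and PCAT minus PRAT was 1.60 (SE 1.03, limma adjusted p = 0.44). OAT minus PCAT was 1.17 (SE 1.03, limma adjusted p = 0.58). Without the 6 lymphocyte-rich libraries the OAT minus PRAT difference was 3.69 and the OAT minus PCAT difference 2.38, and neither passed.

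The balance of both genes differed among the SAT depots. As log2 PAPPA2 minus log2 ASTN1, the values in animals 1 to 6 were -0.11, -0.50, -5.82, -1.40, -1.66 and -0.97 in BSAT. They were 0.53, -0.57, 5.25, 3.00, 1.59 and 4.08 in SSAT, and 2.56, 2.81, 4.75, 2.54, 2.18 and 3.11 in IAT. ASTN1 thus had the higher FPKM in 6 of 6 BSAT libraries, and PAPPA2 in 5 of 6 SSAT and in 6 of 6 IAT libraries. The test below compares this balance between depots, not the level of 1 gene with that of the other.

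The means were -1.74 ± 2.08 in BSAT, 2.31 ± 2.2 in SSAT and 2.99 ± 0.91 in IAT (SD, n = 6 each). The difference among the depots exceeded the spread between libraries, with F = 11.8 and a two-sided p of 0.0037 in an exact permutation test of the depot labels within animals, over all 46656 assignments. Leaving out animal 3, whose BSAT value is set by a PAPPA2 level of 0, gave F = 12.9 and p = 0.012 in the same exact permutation test. Leaving out animal 1, which holds the muscle-rich BSAT library, gave p = 0.022, and leaving out animal 4, which holds the lymphocyte-rich IAT library, gave p = 0.010, both by exact permutation.

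**Figure D2:**
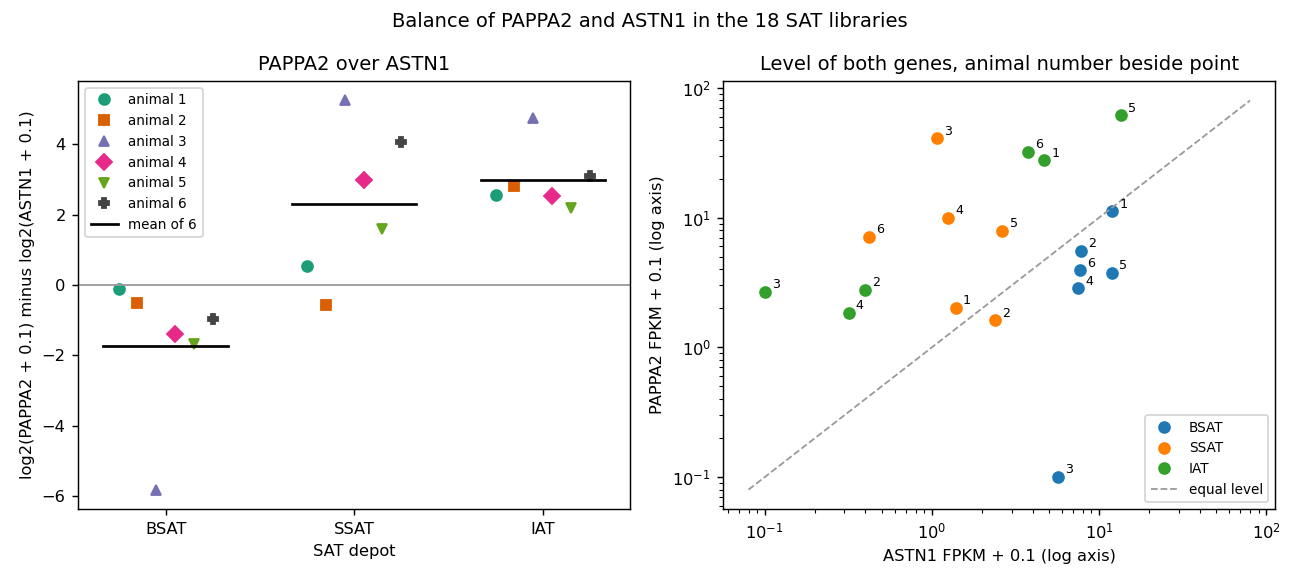
Left, log2(PAPPA2 FPKM + 0.1) minus log2(ASTN1 FPKM + 0.1) in the 18 SAT libraries by depot, with a line for the mean of 6; right, PAPPA2 against ASTN1 as FPKM + 0.1 (both axes log) with the animal number beside each point and a dashed line of equal level. All 6 BSAT libraries lie below equal FPKM (mean -1.74) and all 6 IAT libraries above it (mean 2.99).

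Within a depot, the association of both genes was examined over the 6 animals, on the log2 scale. In IAT Pearson's r was 0.95 (exact permutation p = 0.019, adjusted over 6 depots 0.11) and Spearman's rho was 0.89 (exact permutation p = 0.033, adjusted 0.18). Without the 2 libraries farthest from the median of ASTN1, r in IAT was 0.99. In BSAT r was 0.76 (exact permutation p = 0.036, adjusted 0.11) and rho was 0.83 (exact permutation p = 0.058, adjusted 0.18). The BSAT value without the 2 farthest libraries was 1.00 over 4 libraries, of which BSAT 3 has PAPPA2 at 0, and without animal 3 r in BSAT was 0.55.

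No depot passed the adjustment. In SSAT the association had the other sign, with r = -0.32 (exact permutation p = 0.55) and rho = -0.37 (exact permutation p = 0.50), and without the 2 farthest libraries r was -0.80. In the VAT depots r was -0.15 in OAT, 0.24 in PCAT and -0.29 in PRAT, where the number of libraries with both genes above 0 was 2, 1 and 0. Over all 36 libraries r was 0.52, a value that shares its animals and the SAT against VAT contrast that chose both genes. With depot means removed it was 0.27.

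Neighbours on the chromosome are thus not each other's nearest match in level. The ranks and lists of similar gene models cover only the 11780 with a symbol and a mean of at least 1 FPKM. Of these, PAPPA2 ranked 152 among those most like ASTN1 by Pearson's r over the 36 libraries, and ASTN1 ranked 598 among those most like PAPPA2. These r values share the SAT against VAT contrast that chose both genes. The gene models most like ASTN1 were PTGES (r = 0.76), a prostaglandin E synthase, TTC21A (0.72), CPZ (0.70), a carboxypeptidase of the extracellular matrix, ZSWIM4 (0.69), SELE (0.68), the endothelial adhesion molecule E-selectin, ECM1 (0.68), COL1A1 (0.67), a chain of type I collagen, and ABL2 (0.67), a tyrosine kinase encoded by gene model 1291 of chromosome 5.

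The gene models most like PAPPA2 were RCN1 (r = 0.85), a calcium-binding protein of the endoplasmic reticulum, NT5E (0.85), a surface nucleotidase, ADAMTS2 (0.85), a protease that trims procollagens, COL5A1 (0.82), a chain of type V collagen, PDGFRL (0.82), PRDM8 (0.82), FAM114A1 (0.82) and RECK (0.82), a membrane inhibitor of matrix proteases. The lists of 8 had 0 genes in common. Libraries of 1 depot and 1 animal enter these coefficients together, and they are a description with n = 36.

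With depot means removed, the gene models most like ASTN1 were TTC21A (r = 0.71), CYP8B1 (0.64), MSX2 (0.63), ZNF628 (0.62) and IER3 (0.60). Those most like PAPPA2 were TXNDC5 (0.75), LOX (0.74), the enzyme that cross-links collagen, RCN1 (0.73), NT5E (0.72) and PDGFRL (0.71). RCN1, NT5E and PDGFRL thus stood near PAPPA2 with and without the depot means, and TTC21A near ASTN1. With depot means removed, PAPPA2 ranked 867 among those most like ASTN1, and ASTN1 ranked 1760 among those most like PAPPA2.

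Genes that mark fibroblasts and adipose progenitors followed the fat class. Of 15 such genes listed, 13 were tested and all 13 were called higher in SATs, with a median log2 difference of 1.67, where the same fit called 7.90% of all gene models higher in SATs. Their summed level was 10825 to 174728 FPKM in SATs and 2567 to 89682 FPKM in VATs. Most of it came from the collagen genes COL1A1, COL1A2 and COL3A1, with SAT means of 40382, 21763 and 18868 FPKM. The score of the list, the mean of its centred log2 values in a library, had a Pearson's r with PAPPA2 of 0.86 over 36 libraries, 0.83 over the 18 SAT libraries, 0.59 over the 18 VAT libraries and 0.66 with depot means removed. Without the 6 lymphocyte-rich libraries r was 0.85 over 30, and without PCAT 4 as well it was 0.87 over 29. The r values over 36, 30 and 29 libraries share the SAT against VAT contrast that chose PAPPA2. All of these r values draw on the same 6 animals, so their libraries are not independent, and they are a description.

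With ASTN1 the same score had an r of 0.56 over 36 libraries, which likewise shares the contrast that chose the gene. It was 0.046 within SATs, 0.18 within VATs and 0.26 with depot means removed. BSAT 3, at 0 for PAPPA2, had the lowest score of the SAT libraries at -0.92, and SSAT 3, with 40.7 FPKM of PAPPA2, had the highest at 1.82. Both libraries are from the same animal, and ASTN1 in them was 5.55 FPKM in BSAT 3 and 0.975 FPKM in SSAT 3. The part of these markers in the levels of PAPPA2 and ASTN1 was not tested.

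**Figure D3:**
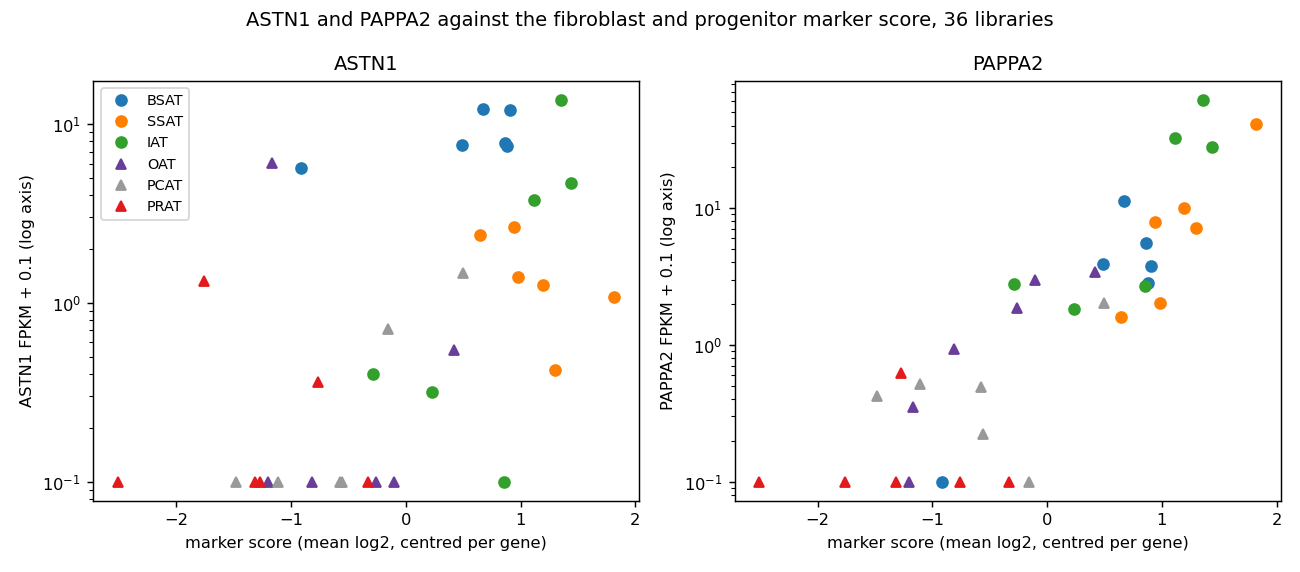
FPKM + 0.1 (log axis) of ASTN1 and PAPPA2 against the score of 13 fibroblast and progenitor markers (mean of log2 values, each centred on its gene) in 36 libraries, SAT depots as circles and VAT depots as triangles. Within the 18 SAT libraries r was 0.046 for ASTN1 and 0.83 for PAPPA2.

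Markers of other cell types that fat can hold were set beside both genes in the same way, and their counts stand beside 7.90% of all gene models higher and 22.1% lower in SATs. Of 11 Schwann cell genes, 2 were higher and 7 lower in SATs, and the summed level was 174 to 302 FPKM in SATs and 165 to 841 FPKM in VATs. Of 11 neuron genes, 6 were tested, and 1 was higher and 0 lower in SATs, with a median log2 difference of 0.33. NEFL and NEFM, which encode neurofilaments, were at 0 in all SAT libraries, GAP43, a protein of growing axons, averaged 0.747 FPKM in SATs and 0.043 FPKM in VATs, and STMN2, a stathmin of neurons, averaged 5.44 FPKM in SATs and 2.47 FPKM in VATs. SNAP25 and SYT1 went the other way, with means of 5.04 and 1.63 FPKM in SATs and 6.25 and 3.94 FPKM in VATs. The summed level of the neuron genes was 2.88 to 37.4 FPKM in SATs and 2.2 to 39.8 FPKM in VATs. Mesothelial genes counted 0 higher and 6 lower of 10 tested, with sums of 1.11 to 6.41 FPKM in SATs and 1.31 to 2453 FPKM in VATs. Endothelial genes counted 0 calls of 8 tested, and lymphoid genes 0 higher and 3 lower of 11. Within the 18 SAT libraries, the scores of these lists had r values with PAPPA2 between -0.67 (endothelial) and 0.42 (neuron), and with ASTN1 between -0.41 (mesothelial) and 0.29 (endothelial). The part of these cell types in the levels of both genes was not tested.

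To see whether the surrounding stretch of the chromosome followed the pair, the 20 gene models within 10 numbers of it were examined. Of these, 13 had an average above 0.1 FPKM and were tested, and 0 were higher and 7 lower in SATs. In the same fit, 5306 of 17688 gene models (30.0%) were called, 7.90% higher and 22.1% lower in SATs. The median log2 difference of the 13 was -0.46, beside -0.13 for all gene models. The count covers this window alone. Beyond it, ABL2 (gene model 1291), met above among the models most like ASTN1, averaged 1451 FPKM in SATs and 433 FPKM in VATs. Its log2 difference was 1.46. ABL2 was named for its correlation with ASTN1 over the 36 libraries, which shares the SAT against VAT contrast. Its difference thus adds no evidence on this stretch of the chromosome.

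The nearest neighbour on the side of PAPPA2 was COP1, a ubiquitin ligase. COP1 had 46.6 FPKM in the lowest SAT library, 52.0 at the SAT median and 61.9 in the highest, against 49.4, 52.9 and 77.3 FPKM in VATs. Its log2 difference was -0.12 (SE 0.062, limma adjusted p = 0.14) and was 0.025 after quantile normalization. COP1 was thus detected in all 36 libraries with overlapping ranges in both fat classes, and its depot means lay between 51.2 and 59.9 FPKM.

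On the side of ASTN1, gene model 1277, which has no symbol, was at 0 in 34 of 36 libraries, and BRINP2, which encodes a protein of neurons, had at most 0.165 FPKM in any library. TEX35 and the other 3 untested models of this side, which have no symbol, likewise stayed under the filter. So did TNR, which lies beyond COP1 on the side of PAPPA2. In RefSeq's annotation of another river buffalo assembly, NDDB_SH_1, the neighbours of the pair carry the same names, with COP1 on one side, BRINP2 on the other and no protein-coding gene between ASTN1 and PAPPA2.

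Of the named neighbours lower in SATs, CACYBP, encoding a calcyclin-binding protein, averaged 0.505 ± 0.078 FPKM in SATs and 0.840 ± 0.27 FPKM in VATs (SD, n = 18 each), a log2 difference of -0.59 (limma adjusted p = 0.00015). RASAL2, encoding an activator of Ras GTP hydrolysis, averaged 70.1 ± 23.95 FPKM in SATs and 95.5 ± 25.5 FPKM in VATs, a log2 difference of -0.46 (limma adjusted p = 0.0080). Both kept their calls after quantile normalization and without the lymphocyte-rich libraries, and RASAL2 lost its call without PCAT 4 as well (-0.31, adjusted p = 0.067). RABGAP1L had -0.60 (limma adjusted p = 0.034), and its call was lost after quantile normalization (adjusted p = 0.090) and without the lymphocyte-rich libraries (-0.19, adjusted p = 0.077).

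The other calls were gene models without a symbol, numbers 1266 (-0.80), 1267 (-1.20), 1272 (-0.56) and 1281 (-0.51). Models 1267 (means of 0.076 FPKM in SATs and 0.384 in VATs) and 1272 (0.159 and 0.331) lay near the added 0.1. Model 1272 lost its call after quantile normalization (adjusted p = 0.065) and without the lymphocyte-rich libraries (-0.25, adjusted p = 0.14), and model 1281 after quantile normalization (adjusted p = 0.085). Not called were MRPS14 (-0.09), a mitochondrial ribosomal protein, TNN (-0.19), tenascin N, model 1271 (-0.46), SEC16B (0.25), a protein of endoplasmic reticulum exit sites, and CLEC20A (0.40, limma adjusted p = 0.10). After quantile normalization CLEC20A was called, at 0.54 (adjusted p = 0.029). None of the 13 tested neighbours was called higher in SATs in the main comparison.

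**Figure D4:**
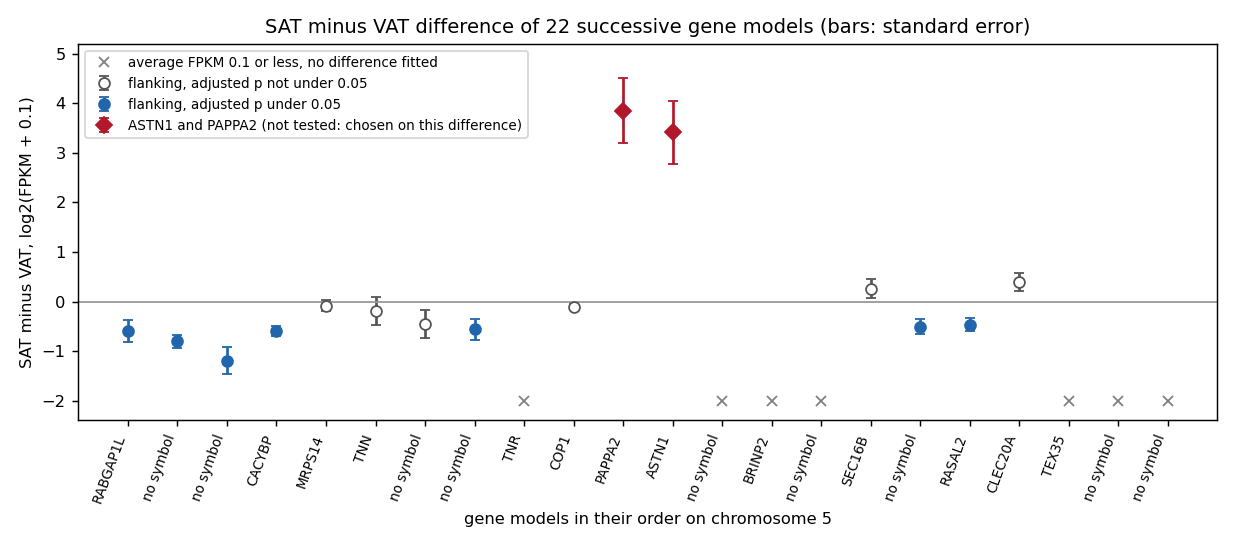
SAT minus VAT difference in log2(FPKM + 0.1), with its standard error as bars, for the 22 successive gene models of chromosome 5 around the pair, in their order and not to scale. ASTN1 (3.42) and PAPPA2 (3.86) stand as diamonds and were not tested, filled circles are the 7 neighbours with an adjusted p under 0.05, all below 0, open circles those not called, and crosses at the lower edge those under the expression filter.

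Both genes have a relative on chromosome 3, where PAPPA (gene model 2023) and ASTN2 (gene model 2024) are again neighbours, with no protein-coding gene between them in RefSeq's annotation of NDDB_SH_1. PAPPA was lower in SATs. In animals 1 to 6 the highest SAT values of PAPPA were in SSAT, where it had a median of 2.29 FPKM and a range of 1.24 to 15.3 FPKM, beside medians of 0.881 FPKM in BSAT and 1.05 FPKM in IAT. In VATs its medians were 2.88 FPKM in OAT, 4.26 FPKM in PCAT and 2.71 FPKM in PRAT.

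PAPPA averaged 2.28 ± 3.39 FPKM in SATs and 3.97 ± 2.40 FPKM in VATs (SD, n = 18 each). Its log2 difference was -1.15 (SE 0.30, limma adjusted p = 0.0047, and 0.0028 with the animal as a block), with the SAT mean lower in 6 of 6 animals. The call held without the lymphocyte-rich libraries (-0.97, adjusted p = 0.023), without PCAT 4 as well (-0.92, adjusted p = 0.033) and without each animal in turn. The lowest 2 depots for PAPPA, BSAT and IAT, had ranges of 0.516 to 1.73 and 0.739 to 1.98 FPKM. In VATs the ranges were 1.42 to 8.72 FPKM in OAT, 2.98 to 6.70 FPKM in PCAT and 2.12 to 10.3 FPKM in PRAT.

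ASTN2 averaged 6.55 ± 3.50 FPKM in SATs and 10.2 ± 10.2 FPKM in VATs (SD, n = 18 each), a log2 difference of -0.32 (SE 0.32, limma adjusted p = 0.45). Its highest values were 35.9 FPKM in OAT 4, 31.4 FPKM in OAT 1, 23.8 FPKM in PCAT 4 and 19.9 FPKM in PCAT 2, of which 3 are lymphocyte-rich libraries. Without the lymphocyte-rich libraries the difference was -0.01, and without PCAT 4 as well 0.16 (adjusted p = 0.64). The lowest ASTN2 value of the 36 libraries was 1.58 FPKM, so that unlike ASTN1 it was never at 0.

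**Figure D5:**
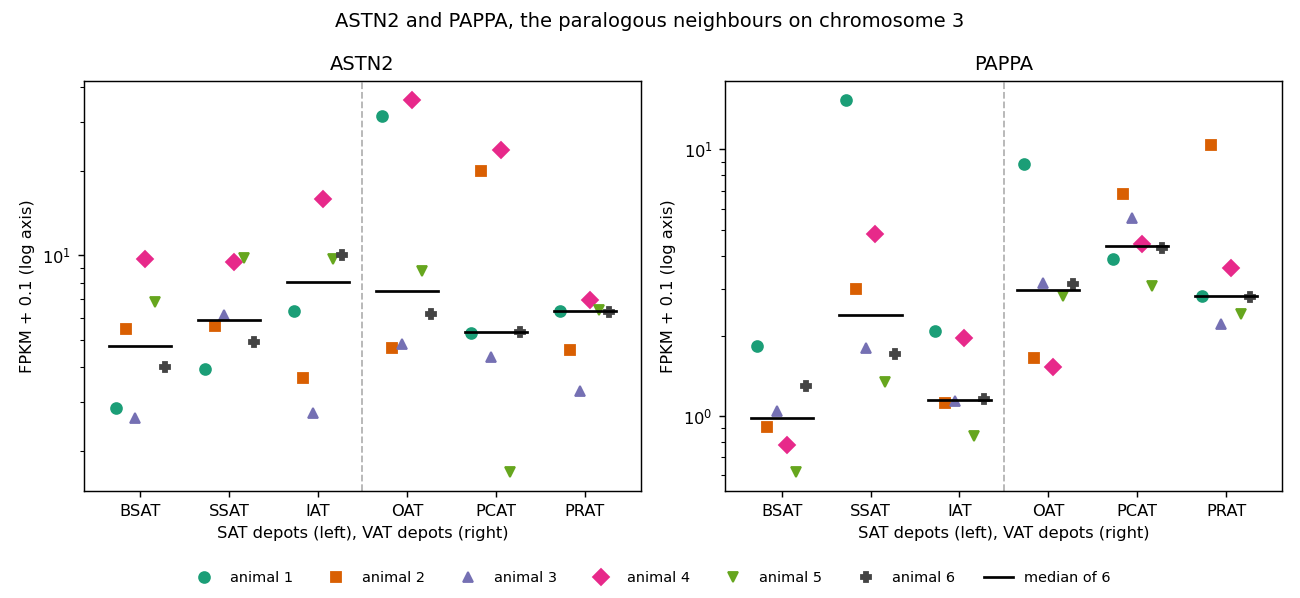
FPKM + 0.1 (log axis) of ASTN2 and PAPPA in 36 libraries, SAT depots left of the dashed line and VAT depots right of it, 1 symbol per animal and a line for the median of 6. PAPPA had its lowest medians in BSAT (0.881 FPKM) and IAT (1.05 FPKM), and the depots of ASTN2 overlap throughout.

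The genes that share a pathway with PAPPA2 were examined from a list of 24, of which 21 were in the table and tested. In SATs 5 were higher and 3 lower, beside 7.90% and 22.1% of all gene models, and the median log2 difference was 0.01. The binding proteins that PAPPA2 cuts were abundant in all depots. IGFBP5 averaged 2853 ± 1377 FPKM in SATs and 2992 ± 1715 FPKM in VATs, a log2 difference of 0.01 (SE 0.31), and IGFBP3 averaged 126 ± 67.5 FPKM in SATs and 89.1 ± 56.7 FPKM in VATs, a log2 difference of 0.54 (limma adjusted p = 0.096, SD, n = 18 each).

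Of the other carriers, IGFBP4, the substrate of PAPPA, was higher in SATs by 0.37 on the log2 scale (limma adjusted p = 0.031, and 0.078 without the lymphocyte-rich libraries). IGFBP2 (-0.15) and IGFBP7 (0.01) were not called, and IGFBP7 was called lower without the lymphocyte-rich libraries (-0.28, adjusted p = 0.018). The inhibitors STC1 (-0.06) and STC2 (0.94, SE 0.57, limma adjusted p = 0.20) were not called either, although STC2 was called without the lymphocyte-rich libraries (1.68, adjusted p = 0.014).

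Of the ligands, IGF1 was lower in SATs, with 127 ± 64.5 FPKM against 270 ± 131 FPKM in VATs (SD, n = 18 each), a log2 difference of -1.13 (limma adjusted p = 0.00047) and a lower SAT mean in 6 of 6 animals. IGF2 averaged 2266 ± 753 FPKM in SATs and 2674 ± 1073 FPKM in VATs, a log2 difference of -0.18 (limma adjusted p = 0.47, and -0.49 with an adjusted p of 0.021 without the lymphocyte-rich libraries). The receptors IGF1R (0.22), IGF2R (-0.04) and INSR (-0.13) and the adaptors IRS1 (0.33) and IRS2 (-0.25) were not called. INSR was called lower without the lymphocyte-rich libraries (-0.63, adjusted p = 0.0054), and IRS2 without PCAT 4 as well (-0.67, adjusted p = 0.0085).

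Other proteases that can cut IGF binding proteins moved in both directions. PRSS23 (1.54), HTRA1 (1.16), MMP2 (0.90) and ADAM9 (0.33) were higher in SATs, and ADAM12 (-0.90) was lower. HTRA1, for example, averaged 730 ± 235 FPKM in SATs and 338 ± 148 FPKM in VATs (SD, n = 18 each). Without the lymphocyte-rich libraries ADAM9 (adjusted p = 0.13) and ADAM12 (adjusted p = 0.21) lost their calls.

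From 28 genes known for adhesion and guidance of neurons and glia, the setting in which ASTN1 is best known, 27 were tested. In SATs 0 were higher and 3 lower, beside 7.90% and 22.1% of all gene models. These were DCX (-0.84), encoding doublecortin of migrating neurons, L1CAM (-0.70), an adhesion molecule of axons, and CDK5 (-0.25), a kinase of neurons, and the median log2 difference was -0.09. With the animal as a block the count was 5, all lower, with ERBB4 (-1.65, adjusted p = 0.036) and RELN (-1.07, adjusted p = 0.036) added. NCAM1 (-0.24), NRG1 (-1.20) and GJA1 (0.06) were not called. CDK5 and L1CAM lost their calls after quantile normalization, where UNC5B, a netrin receptor, was called higher (0.45, adjusted p = 0.038). Without the lymphocyte-rich libraries CDK5 was not called (adjusted p = 0.13), and 6 genes were called. LRP8, a reelin receptor, was higher (0.71, adjusted p = 0.0077). DCX (-1.22), L1CAM (-1.11), ERBB2 (-0.83), NTN1 (-0.75) and ITGA6 (-0.55) were lower. CDH2 (-1.24, adjusted p = 0.0011) joined them without PCAT 4 as well. No gene of either list and no neighbour on chromosome 5 was called in any of the 6 depot pairs within a fat class.

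To compare the sexes, the mean of each animal over its depots was taken. ASTN1 averaged -0.30 ± 1.76 on the log2 scale in males and -0.63 ± 0.43 in females (SD, n = 3 each), a difference of 0.32 (SE 0.85, limma adjusted p = 1.00). PAPPA2 averaged 0.45 ± 0.42 in males and 0.55 ± 1.10 in females, a difference of -0.10 (SE 0.56, limma adjusted p = 1.00). With limma, 0 of 17688 gene models (0%) were called between the sexes, and 478 had an unadjusted p under 0.05. Neither gene thus showed a sex difference beyond the spread between animals.

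The SAT minus VAT difference of each animal was compared between the sexes as well. For PAPPA2 it was 4.37, 2.38 and 2.14 in the males and 5.23, 4.61 and 4.42 in the females. The male values were all below the female values, as males and females likewise did not overlap in 7.95% of all gene models. The male minus female difference of PAPPA2 was -1.79 (SE 0.62, unadjusted p = 0.027, limma adjusted p = 0.98). For ASTN1 it was 0.92, 3.47 and 3.08 in the males and 2.29, 6.23 and 4.52 in the females, a difference of -1.86 (SE 1.13, limma adjusted p = 0.98). In this comparison too 0 of 17688 gene models (0%) were called by limma, and 608 had an unadjusted p under 0.05.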

How the data were processed

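Total RNA of 36 adipose samples was sequenced, and the authors aligned reads with HISAT2 2.2.1 and quantified transcripts with StringTie 2.1.4 against an unpublished buffalo assembly of theirs. The deposited values are FPKM for 23032 gene models. They sum to between 796645 and 911384 per library. They are not read counts, so the depth behind a value is unknown and no counting interval is given. Replicates are separate animals. No copy of a library was found (highest correlation 0.992), and 1 emptied line was not analysed here. Symbols were matched without regard to case (the table spells 1 as Astn1).

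FPKM were log2-transformed after adding 0.1, low models (mean FPKM of 0.1 or less) were left out, and the remaining 17688 entered limma 3.58.1 in R 4.3.3 (trend, empirical Bayes, Benjamini and Hochberg over all gene models, threshold 0.05). The main models held the fat class or the depot and no term for the animal. Permutations and correlations used Python 3.11.15, numpy 2.4.6, pandas 2.3.3 and scipy 1.17.1, and figures matplotlib 3.10.9. The limma code was tested on simulated data.

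Equal numbers mark the same animal by the labels. Deviations from depot means had a median correlation of 0.24 between libraries of 1 animal and -0.03 between animals in other depots, and a block for the animal was an alternative. Other alternatives were the pseudocount, the filter, TPM scaling, quantile normalization, and leaving out each animal, the 6 lymphocyte-rich libraries or BSAT 1. Leaving out PCAT 4 with those 6 was chosen after seeing the data.

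The members, lists and alternatives were chosen with earlier results of these data known. Named genes are ASTN1, PAPPA2, the gene models within 10 numbers of them, members of both pathway lists, the 8 gene models with the highest correlation with each member and the 5 after depot means were removed. These 8 and 5 were taken among gene models with a symbol and a mean of at least 1 FPKM. Neighbours in RefSeq were read from its NDDB_SH_1 annotation for names and order only.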

Additional observations from a re-analysis of the deposited data

Results flagged for a closer look

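In each depot, the highest or lowest of the 6 libraries was compared with its nearest neighbour for ASTN1, PAPPA2, ASTN2 and PAPPA, and a gap that took more of the depot's range than Dixon's critical value allows was taken as a library far from the others. Chance gives about 1 such depot in 20 for independent normal values, and here it was 9 of 24, each by a high value. FPKM here are skewed with many values at 0 and come from the same 6 animals, and the rate for such values was not tested.

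For ASTN1, IAT 5 had 13.5 FPKM with the next library at 4.58, OAT 1 had 5.92 FPKM with the next at 0.447, and PRAT 1 had 1.22 FPKM with the next at 0.260. For PAPPA2, SSAT 3 had 40.7 FPKM with the next library at 9.87, PCAT 1 had 1.91 FPKM with the next at 0.420, and PRAT 3 had 0.522 FPKM with the others at 0. For PAPPA, SSAT 1 had 15.3 FPKM with the next library at 4.73, OAT 1 had 8.72 FPKM with the next at 3.06, and PRAT 2 had 10.3 FPKM with the next at 3.50. OAT 1 and PRAT 2 are lymphocyte-rich libraries.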

How the results depend on the processing

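The depth behind each FPKM is unknown, which limits statements on values near 0. No comparison of ASTN1 or PAPPA2 between depots of 1 fat class passed under any alternative, the replicate block included (0 of 12). For ASTN1 BSAT minus SSAT, the limma adjusted p was 0.053 at a pseudocount of 1 and 0.13 under the block. The balance of both genes among SAT depots passed under each one run (F 8.29 to 12.9 without 1 animal, and p = 0.00073 in a permutation with no replicate block). The count of gene models called between SATs and VATs was 6422 with the block, 5431 without the 6 lymphocyte-rich libraries and PCAT 4 (an alternative chosen after seeing the data), 3619 after quantile normalization and 3517 to 4922 without 1 animal, lowest without animal 1. Quantile normalization moved the median of all gene models by 0.117 on the log2 scale, and 55.0% of its calls were higher in SATs, against 26.3% in the main comparison.

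Calls among the chromosome 5 neighbours were 7, with 7 under the block, 4 among gene models with an average of at least 1 FPKM, 4 without the lymphocyte-rich libraries and PCAT 4, and 4 to 6 without 1 animal. Calls in the astrotactin list were 3, with 5 after TPM scaling, 5 under the block, 6 without the lymphocyte-rich libraries, 7 without PCAT 4 as well and 2 to 4 without 1 animal. Calls in the IGF list were 8, with 9 under the block, IRS1 added, 10 without the lymphocyte-rich libraries and PCAT 4, and 6 to 8 without 1 animal.

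Male minus female differences changed sign, none past the threshold. For ASTN1 it was -0.60 over SAT depots alone, -0.058 without the lymphocyte-rich libraries and PCAT 4, and -0.65 to 1.06 without 1 animal. For PAPPA2 it was 0.20 at a pseudocount of 0.01, 0.069 without the lymphocyte-rich libraries and -0.73 to 0.28 without 1 animal. Differences between depots that changed sign were ASTN1 OAT minus PCAT (-0.73 without the lymphocyte-rich libraries, -0.36 without PCAT 4 as well, -0.16 to 0.90 without 1 animal), ASTN1 OAT minus PRAT (-0.32 without the lymphocyte-rich libraries), ASTN1 SSAT minus IAT (-0.33 at a pseudocount of 1, -0.26 without the lymphocyte-rich libraries, -0.54 to 0.78 without 1 animal), PAPPA2 BSAT minus SSAT (-2.13 to 0.10 without 1 animal) and PAPPA2 SSAT minus IAT (-1.46 to 0.086 without 1 animal). The correlation of both genes changed sign in OAT (0.056 at a pseudocount of 0.01, 0.58 without the lymphocyte-rich libraries, -0.64 to 0.43 without 1 animal) and PCAT (-0.12 at a pseudocount of 0.01, -0.88 to 0.91 without 1 animal). The difference of ASTN2 between SATs and VATs was 0.16 without the lymphocyte-rich libraries and PCAT 4. The SAT minus VAT difference was 5.41 at a pseudocount of 0.01 and 1.61 at 1 for ASTN1, and 5.08 and 2.28 for PAPPA2. The cause of these changes was not tested.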
